A study of Mus musculus with 7 samples.

Results

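The transcription factors that hold hepatocyte identity in place were followed here through 9 genes, Hnf4a, Foxa1, Foxa2, Foxa3, Cebpa, Cebpb, Onecut1, Prox1 and Nr5a2, out of 55487 genes in the count table. They were chosen by name, as the genes whose Ensembl identifiers carry these symbols in the GENCODE annotation of GRCm38, and not by a rule on measured values. Earlier results of these data were known when they were chosen. The libraries came from precision-cut liver slices (PCLS), discs of living liver tissue 3 mm in diameter, taken from healthy, adult male mice of strain Balb/c. Slices were kept in Williams' medium E for 3 days without added drug (CTR, 3 libraries) or with the sodium salt of valproic acid at 2.5 mM (VPA, 4 libraries), an inhibitor of class I histone deacetylases. The labels number the slice cultures from 71 to 74. Cultures 71, 72 and 74 gave a library in each group and culture 73 a VPA library alone. The methods of the study count each different liver as a biological repeat, but neither they nor the labels state that a culture number marks a liver, so p-values measure the spread between these libraries. No uncultured liver was measured, and CTR is therefore cultured tissue as well.

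HNF4A is a nuclear-receptor-type factor that sits at the centre of the liver's regulatory network and drives genes for apolipoproteins, clotting factors and drug metabolism. FOXA proteins open compacted chromatin for other factors, C/EBP proteins pair through a leucine zipper and divide the work between metabolic genes (CEBPA) and the acute-phase response (CEBPB), and ONECUT1, PROX1 and NR5A2 tune the network in the embryo and in adult bile acid and sterol metabolism. These factors bind their own and each other's promoters, and dedifferentiation of hepatocytes in culture is known to lower several of them.

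All 9 genes had promoters in the RefSeq tables of GRCm38.p6, with 14 start sites among them. The 250 bases before each start were searched on both strands for 5 short motifs, which were AAAGTCC for HNF4, TGTTTAC for FOXA, TTGCNNAA for C/EBP, ATTGATT for ONECUT and AAGGTCA for NR5A2. No string contains another. The ONECUT string stood before a start of Hnf4a and of Foxa2, against 2.61% of all 32851 promoters. The FOXA string was found for Foxa1 alone (3.17% of all promoters) and the C/EBP string for Nr5a2 alone (9.56%). The HNF4 string (3.58% of all promoters) and the NR5A2 string (4.08%) were found before none of the 14 starts. A match gives these letters in this window of the reference sequence and no more. The promoters shown are those of Hnf4a and Foxa2, whose levels ran closest together across the libraries, and of Nr5a2, which had no count in 1 VPA library. Bases inside annotated exons were left out, each sequence runs 5′ to 3′ on the strand of the gene, and capitals mark the ONECUT string in Hnf4a and Foxa2 and the C/EBP string in Nr5a2. The starts of Hnf4a lie 40298 bases apart, and the window shown is that of the upstream one, chr2:163506607-163506807 on the plus strand. The Foxa2 window is chr2:148046970-148047219 and the window of the downstream Nr5a2 start chr1:136953631-136953880, both on the minus strand.
Hnf4a upstream start: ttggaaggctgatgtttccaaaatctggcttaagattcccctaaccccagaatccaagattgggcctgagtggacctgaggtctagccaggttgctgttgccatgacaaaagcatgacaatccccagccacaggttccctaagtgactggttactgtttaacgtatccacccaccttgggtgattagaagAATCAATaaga
Foxa2: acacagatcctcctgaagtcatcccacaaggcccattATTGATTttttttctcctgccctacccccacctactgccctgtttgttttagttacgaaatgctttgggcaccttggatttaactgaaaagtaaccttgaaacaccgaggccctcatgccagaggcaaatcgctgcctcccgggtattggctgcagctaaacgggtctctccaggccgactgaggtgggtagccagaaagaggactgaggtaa
Nr5a2 downstream start: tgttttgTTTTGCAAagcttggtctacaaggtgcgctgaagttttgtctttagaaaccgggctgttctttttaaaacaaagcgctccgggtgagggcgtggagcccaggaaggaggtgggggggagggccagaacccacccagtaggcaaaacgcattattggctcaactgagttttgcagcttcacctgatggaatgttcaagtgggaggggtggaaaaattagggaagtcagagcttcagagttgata
The upstream start of Hnf4a carried the ONECUT letters 60 bases before the start. In Foxa2 the ONECUT letters began 213 bases before the start, and in Nr5a2 the C/EBP letters began 243 bases before it. In adult liver the downstream promoter of Hnf4a is the main one, but reads from the 3′ ends of transcripts cannot tell which start was used.

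Counts on genes ranged from 1743675 to 4773750 per CTR library and from 1400887 to 3102450 per VPA library (two-sided exact permutation test over 35 splits, p = 0.286). The number of genes with a count was 17744 to 19756 in CTR and 14359 to 16761 in VPA (exact permutation p = 0.0286, the smallest this design can give). Among genes for which the other libraries predicted at least 20 counts, 1.31 to 2.21% were at 0 in a CTR library, against 3.50 to 5.88% in VPA 2, VPA 3 and VPA 4 and 8.77% in VPA 1. VPA 1 is the library of culture 73, which has no CTR partner. A count of 0 allows up to 3 counts, between 0.591 and 2.41 CPM (counts scaled to library size) depending on the library, for counting error only. In whole tissue, fewer hepatocytes and less RNA per hepatocyte cannot be told apart. The hepatocyte markers summed to 11695 to 26464 CPM in CTR and 8214 to 22616 CPM in VPA. Of 30 markers, 26 were tested and none had an unadjusted edgeR p under 0.05, against 8.28% of all tested genes.

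No change with VPA was detected in the 8 factors that had enough counts to be tested. Of these, 0 had an adjusted p under 0.05 in edgeR's quasi-likelihood test, where 0.00919% of all 10876 tested genes (1 gene) did. At an unadjusted p under 0.05 the count was also 0, against 8.28% of all tested genes. In DESeq2, which also gave Foxa1 an adjusted p, 0 of 9 were called against 1.01% of genes, and in limma-voom 0 of 8. The CTR and VPA values of all 8 overlapped, while 11.9% of tested genes had groups that did not overlap (4.44% higher and 7.41% lower with VPA). The 5 positive and 3 negative log2 fold changes gave a median of 0.16, beside a median of -0.06 over all tested genes. The summed CPM of the 9 factors was 508.9 ± 154.2 (SD, n = 3) in CTR and 575.6 ± 95.7 (SD, n = 4) in VPA.

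**Figure D1:**
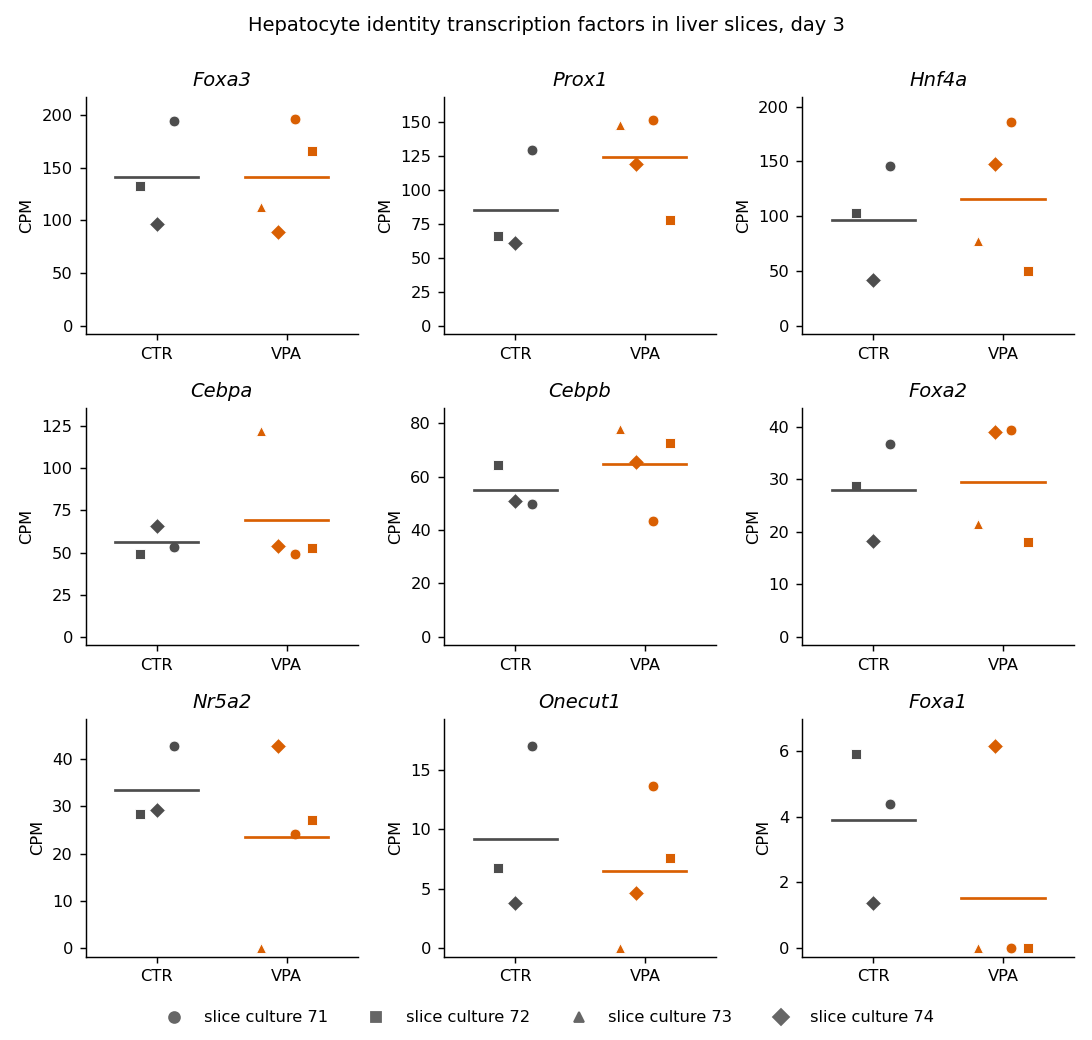
CPM of the 9 factors (vertical axis, linear) in 3 CTR and 4 VPA libraries, 1 panel per gene, ordered by mean level. Each point is a library, its shape gives the slice culture and the horizontal line is the group mean. CTR and VPA points overlap for the 8 tested factors. Foxa1 was at 0 in 3 VPA libraries.

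The most abundant factor was Foxa3, with a mean of 140.9 CPM over the 7 libraries, followed by Prox1 with 107.6 CPM and Hnf4a with 107.4 CPM. Reads came from the 3′ ends of transcripts, so these CPM were not divided by length. Cebpa (63.7 CPM) and Cebpb (60.6 CPM) formed a middle level, Foxa2 (28.8 CPM) and Nr5a2 (27.8 CPM) a lower one, and Onecut1 (7.61 CPM) and Foxa1 (2.55 CPM) stood at the bottom. Neighbours in this order overlapped across the libraries, with the exception of Cebpb (43.4 to 77.7 CPM) and Foxa2 (18.1 to 39.3 CPM), so the order of the other neighbours does not exceed the spread. Nr5a2 and Onecut1 overlapped through the 0 counts of both in VPA 1 alone, and stood at 24.1 to 42.8 and 3.75 to 17.0 CPM in the other 6 libraries.

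Hnf4a lies at chr2:163506808-163572910 on the plus strand. It was at 102.8, 41.6 and 145.8 CPM in CTR 1, CTR 2 and CTR 3. In VPA 1 to VPA 4 it was at 77.7, 147.9, 186.3 and 49.8 CPM. The lowest value of all was in a CTR library and the highest in a VPA library, but VPA 4 stood below 2 of the CTR libraries, and the range within each group exceeded the difference of the means. The log2 fold change was 0.27 with a 95% interval from -1.01 to 1.54 (SE 0.55, edgeR adjusted p = 0.961). As a fold, this interval runs from 0.495 to 2.92. Within slice cultures the log2 difference between VPA and CTR was 0.35 in culture 71, -1.03 in culture 72 and 1.81 in culture 74, so the cultures did not share a direction. Without CTR 2 the fold change became -0.11, and without VPA 3 it became -0.06. The antisense gene Hnf4aos and the small nuclear RNA gene Gm25881, which overlap Hnf4a, had 0 counts in every library.

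The FOXA genes differed from each other far more than CTR differed from VPA. Foxa3 (chr7:19013284-19023538, minus strand), which appears last of the FOXA genes in liver development, made up 81.6 ± 2.03% (SD, n = 3) of the summed FOXA CPM in CTR and 80.9 ± 10.3% (SD, n = 4) in VPA. The summed FOXA level was 173.1 ± 60.0 CPM in CTR and 171.7 ± 48.3 CPM in VPA. Foxa3 was at 132.8, 96.4 and 194.6 CPM in the CTR libraries and at 113.0, 88.5, 195.9 and 165.4 CPM in the VPA libraries. The groups covered nearly the same range, and the log2 fold change was -0.01 (95% interval -0.80 to 0.78, edgeR adjusted p = 1.00), a sign that turned under 4 other scalings or filters and without CTR 3, VPA 1 or VPA 2. Within cultures 71, 72 and 74 its log2 difference was 0.01, 0.32 and -0.12, the second narrowest spread of the tested factors after Cebpa.

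Foxa2 (chr2:148042877-148046969, minus strand), needed with Foxa1 to start liver development, was at 28.8, 18.3 and 36.7 CPM in CTR. It was at 21.5, 39.0, 39.3 and 18.1 CPM in VPA. VPA 2 and VPA 3 lay above all CTR libraries and VPA 4 below them all, with a log2 fold change of 0.09 (95% interval -0.85 to 1.03, edgeR adjusted p = 0.978). Its sign turned without CTR 2 (-0.15), without VPA 2 (-0.08) and without VPA 3 (-0.08). As with Hnf4a, the log2 difference was negative in culture 72 (-0.64) and positive in culture 74 (1.06). Foxa1 (chr12:57540628-57546916, minus strand) had 50 counts in all, too few for the test in edgeR. Its counts were 15, 7 and 8 in CTR 1 to CTR 3 and 0, 20, 0 and 0 in VPA 1 to VPA 4. The VPA library with counts, VPA 2, had the highest level of all 7 (6.15 CPM), and in the other 3 VPA libraries the limit of 3 counts was 1.96, 2.41 and 2.27 CPM, above the 1.38 CPM of CTR 2. CTR 1 (5.91 CPM) and CTR 3 (4.39 CPM) stood above these limits, which cover counting error only. Genes with at least 20 predicted counts were also found at 0 in VPA libraries, so a 0 sets no firm upper limit on Foxa1. The other libraries predicted 4.42, 3.59 and 3.82 counts of Foxa1 in VPA 1, VPA 3 and VPA 4.

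Cebpa (chr7:35119293-35121928, plus strand), which holds hepatocytes in a differentiated and metabolically active state, was at 49.3, 65.8 and 53.2 CPM in CTR. It was at 122.1, 53.8, 49.0 and 52.9 CPM in VPA. VPA 2 and VPA 4 fell inside the CTR range, VPA 3 just below it and VPA 1 far above it. The log2 fold change of 0.31 (95% interval -0.53 to 1.14, edgeR adjusted p = 0.933) became -0.11 without VPA 1. In the same library Alb, the gene for albumin and a C/EBP target, was at 5067 CPM against 785.4 to 1909.9 CPM in the other VPA libraries. Alb was picked after its values were seen, and whether the high values of VPA 1 are related was not tested. Cebpb (chr2:167688915-167690418, plus strand), the C/EBP factor raised in the acute-phase response, was at 64.2, 50.9 and 49.9 CPM in CTR. It was at 77.7, 65.5, 43.4 and 72.5 CPM in VPA, where 3 libraries stood above all CTR libraries and VPA 3 stood below them. Its log2 fold change was 0.24 (95% interval -0.33 to 0.80, edgeR adjusted p = 0.908), the narrowest interval of the 8, which ends at a rise of 1.74-fold. The ratio of Cebpb to Cebpa was 1.01 ± 0.272 (SD, n = 3) in CTR and 1.03 ± 0.330 (SD, n = 4) in VPA.

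Counts at Cebpb carry an uncertainty of their own, because its 5′ end shares 908 bases with Tmem189 on the other strand and the use of strand in the counting is not known. The 3′ end of Cebpb, near which reads of this library type fall, lies outside the shared bases. Tmem189 was at 20.5, 40.2 and 18.1 CPM in CTR and at 54.2, 65.8, 57.8 and 44.6 CPM in VPA. All 4 VPA libraries were above all CTR libraries, with a log2 fold change of 1.07 (SE 0.33, edgeR adjusted p = 0.448). How many reads of either gene were counted for the other was not tested. The remaining annotated overlaps (Gm45091 at Cebpa, Gm20649 at Onecut1, Gm28172 and Prox1os at Prox1) held at most 2 counts in all libraries together. Foxa1, Foxa2, Foxa3 and Nr5a2 overlap no other annotated gene.

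Prox1 (chr1:190118035-190170714, minus strand), a homeobox factor of hepatocytes and lymphatic endothelium that represses bile acid synthesis, had the largest positive fold change of the 8. It was at 65.8, 60.9 and 129.4 CPM in CTR. It was at 148.2, 119.3, 151.7 and 77.8 CPM in VPA. The values of VPA 1 and VPA 3 exceeded those of all CTR libraries, and CTR 3 exceeded VPA 2 and VPA 4. The log2 fold change was 0.55 (95% interval -0.25 to 1.35, SE 0.34, edgeR adjusted p = 0.772), and its unadjusted edgeR p of 0.151 was the lowest of the 8 in this model across all genes. Without CTR 3 the fold change became 0.95 and without CTR 2 it became 0.34. Prox1 was the one factor higher with VPA in all 3 slice cultures with both groups, by 0.23, 0.24 and 0.96 on the log2 scale. With the mean log2 CPM of the 26 tested hepatocyte markers subtracted, Prox1 was higher in VPA by 0.58, with 3 of 4 VPA libraries above all CTR libraries. On the same scale the difference was 0.25 for Hnf4a, 0.21 for Cebpa and for Cebpb, 0.06 for Foxa2, -0.01 for Foxa3, -0.81 for Onecut1, -1.41 for Nr5a2 and -1.59 for Foxa1. These values have no test.

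Nr5a2 (chr1:136842571-136960448, minus strand), an orphan nuclear receptor of bile acid and cholesterol metabolism, was at 28.4, 29.2 and 42.8 CPM in CTR. It was at 0, 42.7, 24.1 and 27.2 CPM in VPA. VPA 1 had 0 counts where the other libraries predicted 44.1, while VPA 2 reached the top of the CTR range. The log2 fold change of -0.49 had an interval from -2.83 to 1.84 (edgeR adjusted p = 0.960) and became -0.08 without VPA 1. Onecut1 (chr9:74861921-74891781, plus strand), a partner of the FOXA and C/EBP factors in the developing liver, was at 6.70, 3.75 and 17.0 CPM in CTR. It was at 0, 4.61, 13.7 and 7.55 CPM in VPA, so that 3 VPA libraries fell within the CTR range and VPA 1 held no count. Its log2 fold change was -0.50 (95% interval -3.27 to 2.26, edgeR adjusted p = 0.965), which became -0.09 without VPA 1 and 0.28 without CTR 3. VPA 1 thus held no count for Foxa1, Onecut1 and Nr5a2 and the highest level of Cebpa, Cebpb and Alb. Of all tested genes 25.0% were at 0 in at least 1 library, as were 2 of the 8 tested factors.

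**Figure D2:**
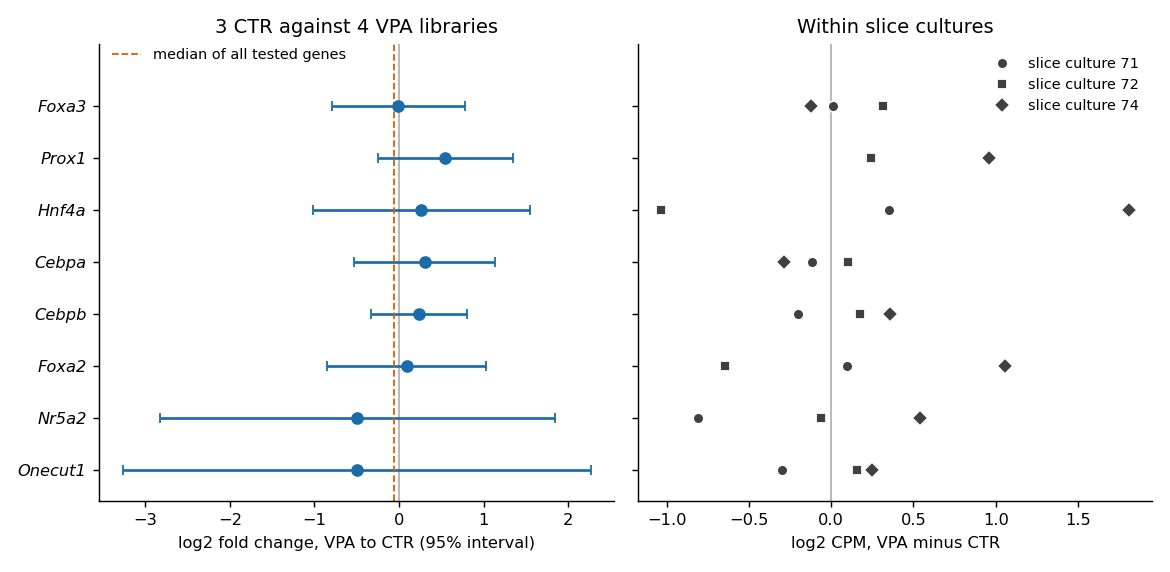
Left, log2 fold change from CTR to VPA of the 8 tested factors with its 95% interval (points and bars, edgeR), with the median of all tested genes as a dashed line. Right, log2 CPM of VPA minus CTR within slice cultures 71, 72 and 74. All 8 intervals cross 0, and Prox1 is positive in each of the 3 cultures.

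Slice cultures were also compared. In both groups the library of culture 71 was the highest for Hnf4a, Foxa2, Foxa3, Onecut1 and Prox1, which is 5 of the 8 tested factors, against 11.4% of all tested genes. This pattern was noticed after the values were seen and has no test. The same was true of 7 of 15 tested HNF4A targets, 5 of 9 FOXA targets, 7 of 26 hepatocyte markers, 4 of 9 nuclear receptor partners, 5 of 15 fetal or dedifferentiated genes and 4 of 14 CEBPB targets. It was true of 3 of 21 other liver-enriched transcription factors, 1 of 10 CEBPA targets and 0 of 10 cofactors. Cebpa, Cebpb and Nr5a2 did not show it. Culture 71 also gave the highest summed level of the hepatocyte markers in each group, 26464 CPM in CTR 3 and 22616 CPM in VPA 3, and the part of this in the factors' levels was not tested.

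Across the 7 libraries the profiles were compared by the root mean square difference of log2 CPM after each gene was centred on its own mean. Among the factors Hnf4a and Foxa2 were nearest (0.33), followed by Cebpa with Cebpb (0.38) and Foxa2 with Prox1 (0.45). Out of 6392 tested genes with a mean of at least 20 CPM, the genes near to Hnf4a included Sqor (0.29), which oxidizes sulfide in mitochondria, and Cyb5a (0.30), an electron carrier of the endoplasmic reticulum. Sqor was at 20.9, 11.04 and 30.7 CPM in CTR and 22.2, 28.0, 30.5 and 13.6 CPM in VPA, with the same 3 high libraries as Hnf4a and its lowest value in CTR 2 as well. Foxa2 was nearest to Hhex (0.13), a homeobox factor of the early liver. Nearest to Foxa3 was Vamp7 (0.15), a vesicle fusion protein, and nearest to Prox1 was Suclg1 (0.14), a subunit of succinyl-CoA synthetase of the citric acid cycle.

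Cebpa had its nearest profile in Tbc1d10b (0.08), which shared the high value of VPA 1. For Cebpb it was Kdm5b (0.10), a histone demethylase. Nr5a2 was nearest to Sptlc1 (0.21), a subunit of serine palmitoyltransferase, which like Nr5a2 had no count in VPA 1 and 31.7 to 43.7 CPM in every other library. The nearest gene to Onecut1, Spaca6, was less alike (0.43). With 7 libraries of unequal depth these distances describe the libraries and carry no test.

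**Figure D3:**
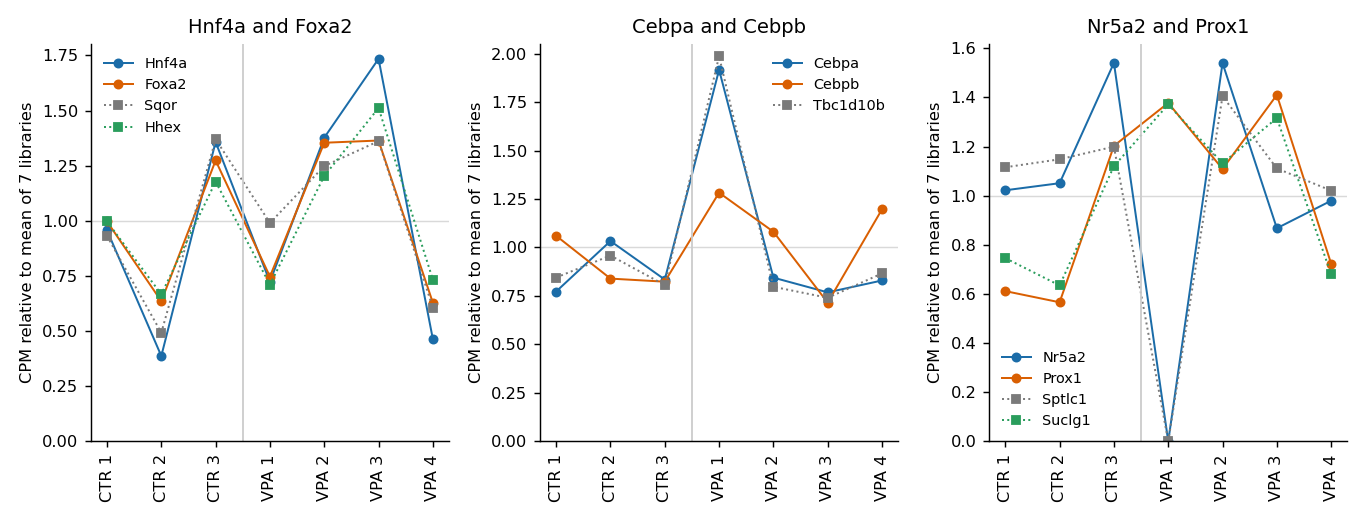
CPM of each gene divided by its mean over the 7 libraries (vertical axis) in CTR 1 to CTR 3 and VPA 1 to VPA 4. Solid lines are members and dotted lines genes near to them, and lines only guide the eye. Hnf4a and Foxa2 are low in CTR 2 and VPA 4, Cebpa is high in VPA 1 and Nr5a2 is at 0 there.

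Among 26 other liver-enriched transcription factors, 21 were tested and 1 rose with VPA. This was Creb3l3, which encodes CREBH, a membrane-bound factor of the endoplasmic reticulum that drives genes of fasting and triglyceride metabolism. It was at 117.8, 78.8 and 115.1 CPM in CTR and 689.5, 519.9, 668.0 and 602.7 CPM in VPA, with no overlap and a log2 fold change of 2.58 (SE 0.21, edgeR adjusted p = 0.0247). It was also the 1 gene of all 10876 past the threshold, a call that was lost when any single library other than VPA 2 was left out (log2 fold change 2.40 to 2.67) and when libraries were scaled to the hepatocyte markers (log2 fold change 2.60, edgeR adjusted p = 0.264). It was also lost in fits blocked by culture number and by replicate number (log2 fold change 2.54 and 2.60, edgeR adjusted p = 0.306 and 0.223). With the unadjusted threshold of 0.05 this list had 4 genes higher and 1 lower, against 3.65% and 4.62% of all tested genes. Foxo1, a factor of fasting gluconeogenesis, had a mean of 34.4 ± 6.33 CPM in CTR and 67.1 ± 30.5 CPM in VPA (log2 fold change 0.97, edgeR adjusted p = 0.541), and the fold change became 0.60 without VPA 2. Atf5, a stress-response factor abundant in liver, had means of 287.8 ± 15.0 and 153.3 ± 43.5 CPM (log2 fold change -0.91, edgeR adjusted p = 0.339).

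Onecut2, the paralog of Onecut1, was picked for a look after its values were seen. It stood at 298.7, 365.4 and 351.4 CPM in CTR and 402.8, 526.1, 746.6 and 472.0 CPM in VPA, 7136 counts in all against 109 for Onecut1. Its 4 VPA libraries exceeded the CTR libraries (log2 fold change 0.67, SE 0.23, edgeR adjusted p = 0.506).

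Nuclear receptor partners and cofactors gave 0 calls in edgeR. DESeq2 called 2 of the 10 cofactors, Crebbp (adjusted p = 0.0292) and Ncor1 (adjusted p = 0.0475), against 1.01% of all genes. Of 12 nuclear receptors 9 were tested, with a median log2 fold change of -0.29. None had an unadjusted edgeR p under 0.05, against 8.28% of all tested genes. Rxra, the partner with which many of them pair, had means of 66.2 ± 4.61 and 54.4 ± 6.08 CPM in CTR and VPA without overlap (edgeR adjusted p = 0.760). All 10 coactivators and corepressors were tested. At the unadjusted threshold of 0.05, 2 were higher and 2 lower with VPA, where 3.65% of all tested genes were higher and 4.62% lower. Crebbp, a histone acetyltransferase that HNF4A recruits, had means of 302.1 ± 19.3 CPM in CTR and 190.7 ± 26.0 CPM in VPA (log2 fold change -0.66, edgeR adjusted p = 0.295). The corepressor gene Ncor1 gave a log2 fold change of -0.51 (edgeR adjusted p = 0.336), also with no overlap. Ppargc1a, the coactivator PGC-1α and a partner of HNF4A in fasting, was below the level set for naming (14.3 CPM on average) and was picked after its values were seen. It was at 4.33, 3.35 and 10.4 CPM in CTR and 17.0, 18.8, 22.5 and 23.4 CPM in VPA (log2 fold change 1.77, edgeR adjusted p = 0.447). Leaving out single libraries gave log2 fold changes of 1.46 to 2.37.

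Genes that these factors are known to control gave 0 calls in edgeR over the 10876 genes. DESeq2 called 2 of them, Apoa4 and Hp, where it called 1.01% of all genes. Of 20 HNF4A targets 15 were tested, 7 with positive and 8 with negative log2 fold changes and a median of -0.25. An unadjusted edgeR p under 0.05 was reached by 1 of the 15, against 8.28% of all tested genes. This was Apoa4, an intestinal and hepatic apolipoprotein. Apoa4 was at 4.73, 15.4 and 6.03 CPM in CTR and 52.2, 57.5, 84.3 and 56.6 CPM in VPA. The groups lay far apart, with a log2 fold change of 2.80 (SE 0.47, adjusted p = 0.142 in edgeR and 2.61e-05 in DESeq2). Among genes with at least 10 counts in every library, edgeR called it (adjusted p = 0.00833). Over all tested genes, the log2 fold change without CTR 2 became 3.52. Apoa4 is a known target of CREBH as well as of HNF4A. Of 13 FOXA targets 9 were tested, 8 with positive log2 fold changes and a median of 0.24. Igfbp1, a secreted binding protein of insulin-like growth factors, was picked after its values were seen and had means of 933.1 ± 614.8 CPM in CTR and 2407 ± 895.4 CPM in VPA (log2 fold change 1.37, edgeR adjusted p = 0.555). Its fold change became 1.98 without CTR 3 and 0.99 without CTR 2.

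Of 14 CEBPA targets 10 were tested, with a median log2 fold change of 0.12. None had an unadjusted edgeR p under 0.05, against 8.28% of all tested genes. Of 15 CEBPB acute-phase targets 14 were tested, 13 of them with negative log2 fold changes and a median of -0.56. Of these 14, 3, all lower with VPA, had an unadjusted edgeR p under 0.05, against 4.62% of all tested genes. None passed adjustment in edgeR, and DESeq2 called 1, Hp (adjusted p = 0.0214), against 1.01% of all genes. The 3 lower at the unadjusted p were Saa1, Saa4 and Hp, picked after their values were seen. Saa1 encodes an apolipoprotein and Hp a haemoglobin scavenger of the acute phase. Saa4, whose groups did not overlap, was at 20.9, 26.4 and 33.4 CPM in CTR. In VPA it was at 10.45, 14.45, 15.25 and 12.1 CPM (log2 fold change -1.04, edgeR adjusted p = 0.487). Saa1 was at 150.1, 195.9 and 32.3 CPM in CTR and 23.5, 35.7, 12.9 and 40.0 CPM in VPA, where CTR 3 fell within the VPA range (log2 fold change -2.16, edgeR adjusted p = 0.393). Hp was at 650.1, 254.9 and 1368 CPM in CTR and 94.7, 40.3, 293.8 and 46.1 CPM in VPA, where CTR 2 lay below VPA 3 (log2 fold change -2.69, edgeR adjusted p = 0.447), and the fold change became -1.97 without CTR 3 and -3.66 without VPA 3. Of 11 bile acid and sterol targets of NR5A2, PROX1 and ONECUT1 only 3 had enough counts to be tested. One of them, the lipoprotein receptor gene Scarb1, was at 63.4, 94.4 and 67.4 CPM in CTR and 0, 16.3, 6.42 and 53.6 CPM in VPA (edgeR adjusted p = 0.709), and VPA 1 again held no count.

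Genes of fetal or dedifferentiated hepatocytes, 15 tested of 23, had a median log2 fold change of -0.19. Of these, 4 were lower with no overlap and an unadjusted edgeR p under 0.05, where 7.41% of all tested genes were lower without overlap and 4.62% lower at that p. None passed adjustment in edgeR. DESeq2 called 2, Vim (adjusted p = 0.00162) and Sox4 (adjusted p = 0.0193), against 1.01% of all genes. Among genes with at least 10 counts in every library, edgeR also called Vim (adjusted p = 0.0328). Vim, the intermediate filament of mesenchymal cells, had means of 654.5 ± 63.3 CPM in CTR and 309.7 ± 67.7 CPM in VPA (log2 fold change -1.08, edgeR adjusted p = 0.193). Sox4, a factor of biliary and progenitor cells, gave -0.79 (edgeR adjusted p = 0.288) and Hmga2, a fetal chromatin protein, -0.69 (edgeR adjusted p = 0.553). Vim also stands in the stellate cell list.

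Markers of the other liver cells were measured beside the factors. Of 14 stellate cell markers, all tested, 11 had negative log2 fold changes, and the median of the 14 was -0.77. The other 3 were positive, Dcn at 0.51, Lum at 0.88 and Rgs5 at 0.21. The summed level of the 14 was 2608 to 5052 CPM in CTR and 1823 to 3467 CPM in VPA. The collagen genes Col1a1, Col1a2 and Col3a1 had log2 fold changes of -1.66, -1.58 and -1.51 with edgeR adjusted p of 0.112, 0.213 and 0.417. DESeq2, which called 1.01% of all genes, called Col1a1 and Col1a2. Among genes with at least 10 counts in every library edgeR called them too (adjusted p = 0.00745 and 0.0228), and without a filter it called Col1a1 (adjusted p = 0.0229). The endothelium markers (10 of 13 tested, median -0.60) summed to 357.6 to 388.9 CPM in CTR and 129.3 to 337.0 CPM in VPA, without overlap, and Stab1 and Cdh5 were at 0 in 2 VPA libraries each. The endothelial receptor phosphatase Ptprb was at 57.6 ± 11.1 and 38.4 ± 9.13 CPM. Prox1 is also made by lymphatic endothelium. Of the genes in that list known from lymphatic endothelium, Flt4 was counted in all 7 libraries (mean 18.2 CPM), Lyve1 (13.2 CPM) and Pdpn (11.3 CPM) in 6 each and Ccl21a in CTR 1 alone, and Mmrn1 was at 0 throughout. The list joins sinusoidal and lymphatic endothelium, and which of them gave these counts was not tested. Cholangiocyte markers (7 of 13 tested, median -0.16) summed to 454.3 to 736.3 CPM in CTR and 276.2 to 818.1 CPM in VPA. Of the 7, 4 had negative log2 fold changes and 3 positive ones, Sox9 (0.39), Krt7 (0.38) and Pkhd1 (0.01). The largest fall was that of the tight-junction gene Cldn4, at 156.3 ± 46.8 and 36.1 ± 12.8 CPM (log2 fold change -2.11, adjusted p = 0.142 in edgeR, 0.00833 in edgeR among genes with at least 10 counts in every library and 9.61e-05 in DESeq2). Macrophage markers (9 of 13 tested, median 0.37) summed to 349.8 to 494.6 CPM and 355.8 to 647.2 CPM, with Adgre1 and Marco at 0 throughout. The part of cell composition in the factors' values was not tested.

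**Figure D4:**
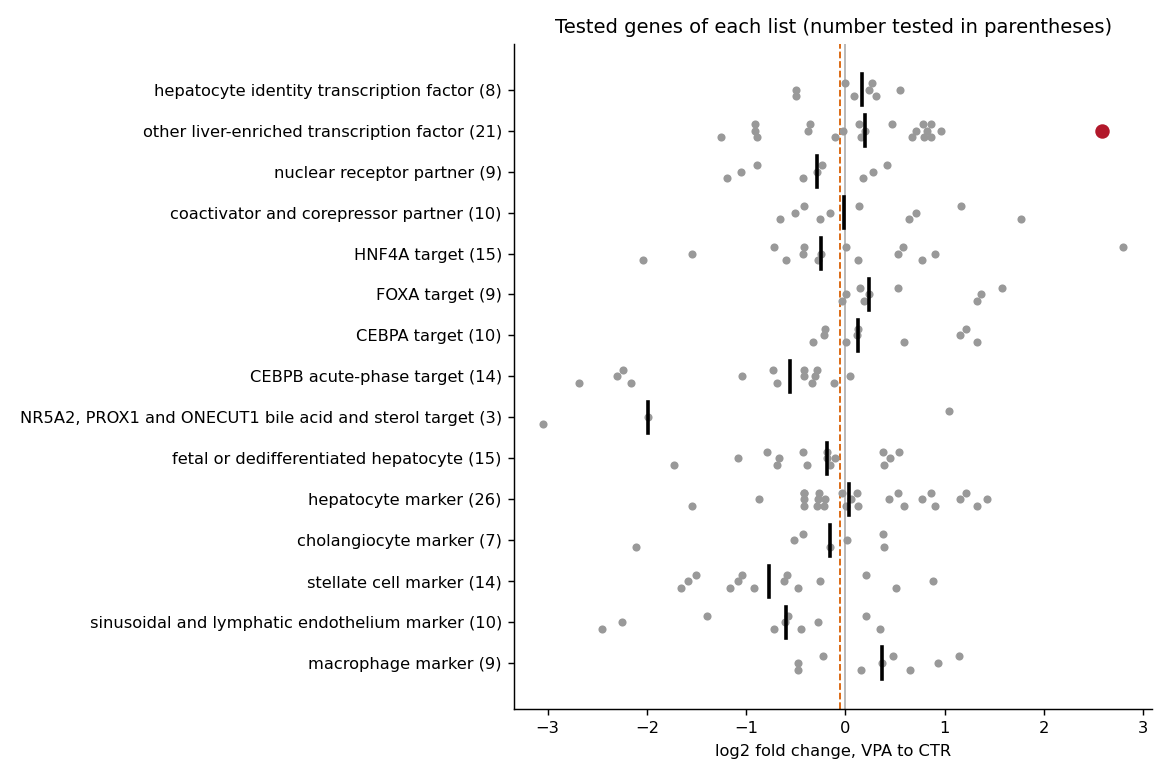
Log2 fold change from CTR to VPA (horizontal axis) of the tested genes of each list, 1 grey point per gene, with the list median as a black bar and the median of all tested genes as a dashed line. The red point is Creb3l3, the gene with an edgeR adjusted p under 0.05. The 8 tested identity factors lie between -0.50 and 0.55.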

How the data were processed

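Gene counts of 7 mouse PCLS libraries (3 CTR, 4 VPA) were analysed. The authors prepared libraries from the 3′ ends of polyadenylated RNA with a kit that keeps strand, sequenced single-end reads, mapped them to GRCm38.p6 with STAR and assembled genes with StringTie, and they deposited raw counts of reads per Ensembl gene as whole numbers. The counting program and its use of strand are not given in the sources used here. Symbols and coordinates came from GENCODE release M21 (55227 of 55487 genes matched). Groups, replicate numbers and slice cultures came from the labels.

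From the counts, edgeR 4.0.16 in R 4.3.3 (TMM, filterByExpr, robust quasi-likelihood test, group as the only term) tested 10876 genes. P-values were adjusted by Benjamini and Hochberg's method and called under 0.05. CPM are counts scaled by the TMM-adjusted library size, and log2 CPM have a prior count of 2. limma 3.58.1 (voom) and DESeq2 1.42.0, other normalizations and filters, blocks by slice culture or replicate number, other thresholds and leaving out each library were alternatives. On simulated data with a log2 change of 2 set in 200 genes, edgeR called 53 of the 176 changed genes it tested at the libraries' own dispersion, and 3 unchanged genes. DESeq2 called 105 changed and 64 unchanged genes there. Libraries of a group differed by more than sampling noise (chi-square per degree of freedom 14.7 to 27.3).

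The members and the 14 other gene lists were chosen with earlier results of these data known. Named genes were the members, in each other list every gene with an adjusted p under 0.05 and the 3 with the largest fold change among genes of at least 20 CPM without overlap between groups, the 3 genes nearest to Hnf4a and the 1 nearest to each other tested member, and genes that overlap a member. Some genes and 1 motif that these rules cover are not reported here. Others are marked as picked after their values were seen. Promoters came from RefSeq for GRCm38.p6, the genome of another strain than Balb/c.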

Additional observations from a re-analysis of the deposited data

Results flagged for a closer look

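Of 25 groups of VPA values tested for a single far library, 3 had one, where chance gives about 1 in 20. Foxa1 was at 6.15 CPM in VPA 2 and at 0 CPM in the other 3 VPA libraries. With 3 values tied at 0, any count in the remaining library is flagged, so the rate of 1 in 20 does not apply to Foxa1. Cebpa was at 122.1 CPM in VPA 1 and at 49.0 to 53.8 CPM in the others. The counts on genes were 3102450 in VPA 2 and 1400887 to 1515954 in the other VPA libraries, so that VPA 2, the deepest VPA library, is also the one with counts for Foxa1. The part of depth in the Foxa1 value was not tested.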

How the results depend on the processing

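The number of identity factors called was 0 under every alternative run, including an unadjusted p under 0.05. Prox1, Cebpb and Nr5a2 kept the sign of their fold change under all alternatives in which they were tested, and the other 5 tested factors did not. With at least 10 counts in every library Nr5a2 and Onecut1 were not tested. Foxa3 (log2 fold change -0.01) became 0.002 with RLE normalization, 0.014 with upper quartile normalization, 0.11 when scaled to hepatocyte markers, 0.004 with at least 10 counts in every library and 0.067 with a replicate block by slice culture. That block also gave -0.11 for Cebpa and 0.048 for Onecut1. Leaving out each library gave -0.11 to 0.66 for Hnf4a, -0.15 to 0.31 for Foxa2, -0.23 to 0.27 for Foxa3, -0.11 to 0.43 for Cebpa and -1.16 to 0.28 for Onecut1. The cause of these changes of sign was not tested.

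Over all genes edgeR called 1 gene. DESeq2 called 154 (39 higher and 115 lower), 1.01% of the genes to which it gave an adjusted p. With no filter on low counts 10 were called, with at least 10 counts in every library 36 and with an adjusted p under 0.1 2. Scaling to hepatocyte markers gave 0, an unadjusted p under 0.05 900, and leaving out each library 0 to 2. Among the other lists' genes 1 was called, 10 by DESeq2, 2 with no filter, 6 with at least 10 counts in every library, 0 when scaled to hepatocyte markers and 0 to 1 without a library. With a replicate block by slice culture or by replicate number 0 genes were called, among all genes as in the lists, and Creb3l3 kept log2 fold changes of 2.54 and 2.60 with adjusted p of 0.306 and 0.223 (edgeR). Same-numbered libraries deviated from their group means with correlations of 0.11, 0.03 and 0.05 for slice cultures 71, 72 and 74, and 5 of 6 libraries correlated best with the library of their own culture. The difference of library totals (log2 ratio -0.73) had an exact permutation p of 0.286, and that of genes with a count (-0.28) one of 0.0286. Counts of 0 leave the values of Foxa1, Onecut1 and Nr5a2 uncertain. A 0 allows up to 3 counts for counting error only, and VPA 1 had 0 counts of Nr5a2 where 44.1 were predicted.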

Other observations

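Among the genes of all lists, 14 had 0 counts in every library and 2 had a single count. Those at 0 included genes known from adult hepatocytes, namely Ass1 of the urea cycle, the bile salt pump gene Abcb11, the nuclear receptor gene Nr1i3, the sterol transporter gene Abcg5 and the circadian factor gene Dbp. Whether these zeros arose in the tissue or in the counting was not tested. Alb, Ttr and Apob were counted in all 7 libraries, with means of 1993, 380.9 and 159.4 CPM. These genes were picked after their values were seen.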
